A study of Mus musculus with 8 samples.

Results

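Transcript levels of mouse CD8+ T cells, the lymphocytes that kill infected cells, were compared between cultures with a PPARγ agonist and cultures with DMSO, a common solvent for such compounds. The comparison uses 4 of the 8 arrays of the series, 2 whose titles read PPRG and 2 whose titles read DMS. All 4 samples were CD8 T cells of female mice, naive before stimulation in vitro, and were labelled day 2. The agonist was given for 48 h, and the other 4 arrays hold cells with a PPARα or a PPARβ agonist. Each title opens with 1 of 2 prefixes, and every group has 1 array with either prefix. What the prefixes mark is not stated. The arrays that share one are called culture set 1 and culture set 2 below, as a working name. The sources used here do not name the compound, its dose, the mouse strain or the age. They do not say either whether a group's arrays stem from different mice or dishes, and a p-value then reflects only array-to-array spread, some of which may be technical.

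PPARγ is a nuclear receptor for fatty acids and their derivatives. It binds DNA as a pair with the retinoid X receptor and switches on genes of lipid uptake and storage, and it is best known from fat cells and macrophages, where its ligands also dampen inflammatory genes. Activated T cells can express it, and its role in CD8+ cells is less well described than in fat.

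Levels were RMA values on the log2 scale, so that a difference of 1 is a factor of 2. Of 22206 transcript clusters on the Clariom S Mouse array, 21371 name a single gene, and the 12696 genes whose mean over the 8 arrays reached 4.892 were tested. Array medians lay between 5.636 and 5.722. The labelled cell type was borne out by its markers: Cd8a, which encodes part of the CD8 receptor, stood at 16.69 and 16.71 with DMSO and at 16.57 and 16.73 with the PPARγ agonist (set 1 and set 2, an order kept throughout). The 11 tested CD8 T cell markers had a mean level of 15.04 and 15.06 with DMSO and 14.94 and 15.05 with the agonist. The number of arrays limits the precision: the median 95% interval of a gene's change was its estimate ± 0.39 on the log2 scale. In RNA of whole cultures, fewer cells of a type and less RNA per cell cannot be told apart.

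The question of the comparison is which transcripts the PPARγ agonist moves in these cells. Among 12696 genes, limma called 0 higher and 0 lower at an adjusted p under 0.05 (0% called), and the lowest adjusted p was 0.0927. At an unadjusted p under 0.05, 352 genes lay higher with the agonist (2.77%) and 390 lower (3.07%), 742 in all (5.84%), where 635 would be reached if no gene differed. No gene below is therefore called changed, and all differences are given as measured values. The unadjusted count was 276 (2.17%) when the culture set was left out of the fit, with 151 higher (1.19%) and 125 lower (0.985%).

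The 2 culture sets gave largely different changes. Across the 12696 genes, the difference between PPARγ agonist and DMSO in set 1 correlated with that in set 2 at 0.034. Genes are not independent, and this is a description. The sign was the same in both sets for 51.1% of genes. The SD of the changes was 0.316 in set 1 and 0.317 in set 2, so the sets were about equally wide. A difference of at least 0.3 with the same sign in both sets was found for 340 genes higher (2.68%) and 329 lower (2.59%), and 231 (1.82%) and 232 (1.83%) of these also had an unadjusted p under 0.05 by limma.

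**Figure D1:**
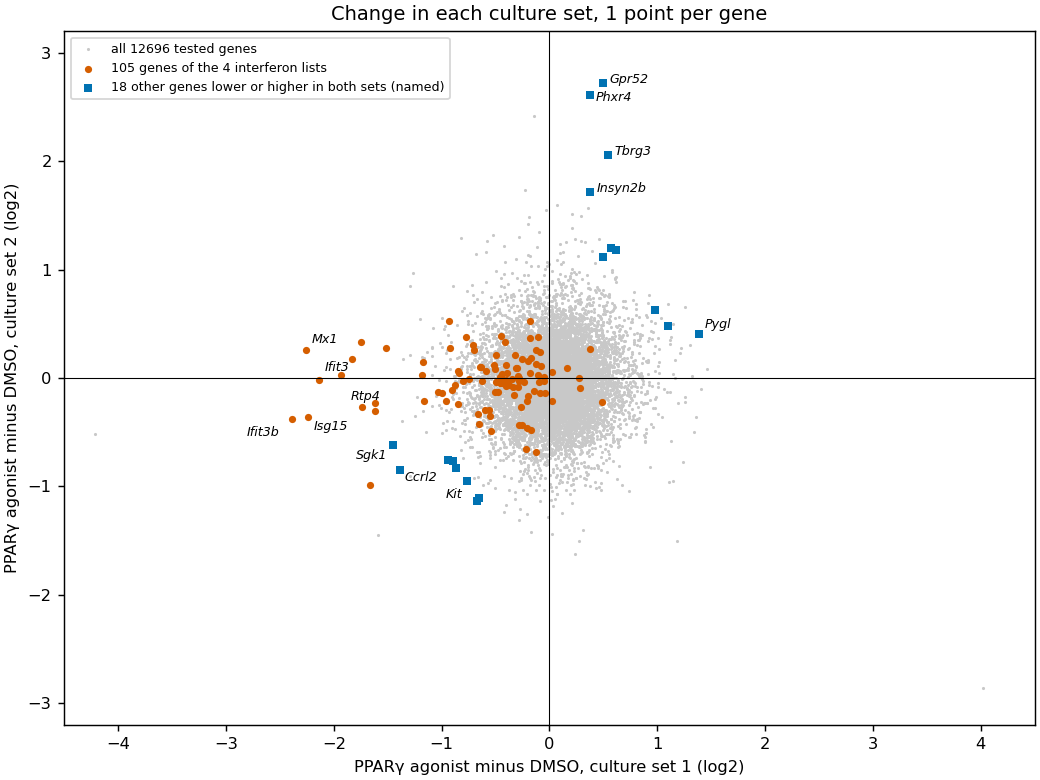
Each point is a gene, with its difference PPARγ agonist minus DMSO (log2) in culture set 1 on the horizontal axis and in culture set 2 on the vertical axis. The cloud of 12696 genes is round, the 105 genes of the 4 interferon lists stretch to the left along the horizontal axis, and the 18 other genes named for a difference in both sets lie apart from the cloud.

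The receptor gene itself was measured at a low level. Pparg lay below the limit of the tested genes on all 4 arrays, at 3.64 and 3.80 with DMSO and 3.76 and 3.72 with the agonist. Ppara, the gene of the related receptor of liver and muscle, stood at 5.16 and 5.04 with DMSO and 4.66 and 5.12 with the agonist. The third receptor gene, Ppard, lies in a cluster shared with 1810013A23Rik, which stood at 9.32 and 9.91 with DMSO and 9.36 and 9.95 with the agonist. Of 25 listed receptors and co-regulators of the PPAR and RXR family, 21 were tested, 11 lay above 0 and 10 below, and 0 had an unadjusted p under 0.05.

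The known targets of PPARγ stood near 0 as a group. Of 42 listed targets from fat cells and macrophages, 25 were tested and 17 lay below the limit, among them Fabp4 and Cd36, which carry fatty acids into and through fat cells, and the adipokine gene Adipoq. The 25 tested members had a median change of -0.0017, beside -0.01 for all tested genes, with 12 above 0 and 13 below. Plin2, the coat protein of lipid droplets, stood at 5.96 and 7.32 with DMSO and 6.22 and 7.09 with the agonist. The groups overlapped, and the change was 0.01 with a 95% interval from -0.58 to 0.61. Angptl4, a secreted inhibitor of lipoprotein lipase, stood at 7.83 and 7.34 with DMSO and 7.94 and 7.58 with the agonist, a change of 0.17 (-0.24 to 0.59). Lpl, lipoprotein lipase itself, stood at 6.93 and 7.44 with DMSO and 7.66 and 7.12 with the agonist, with a sign that differed between the sets.

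A few members of the target list had an unadjusted p under 0.05, 2 lower and 1 higher of 25, beside 3.07% lower and 2.77% higher of all genes, and 0 of 25 without the culture set in the fit. Acsl1, which activates long-chain fatty acids, stood at 6.96 and 6.35 with DMSO and 6.53 and 5.60 with the agonist. Its change was -0.59 (95% interval -0.92 to -0.26, limma adjusted p = 0.806), and both agonist arrays lay below the DMSO array of the same set. Acsl1 stood at 6.47 and 5.63 with the PPARα agonist and 6.49 and 5.66 with the PPARβ agonist, so the DMSO array was the highest of the 4 in either set. Dgat2, which makes triglycerides, stood at 6.67 and 6.09 with DMSO and 6.12 and 5.77 with the PPARγ agonist, a change of -0.44 (-0.81 to -0.06, limma adjusted p = 0.806).

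Targets of fatty acid oxidation, which PPARα and PPARβ govern in other tissues, were as flat. Of 22 tested members, 12 lay above 0 and 10 below, with a median of 0.01. Cpt1a, which admits long-chain fatty acids to mitochondria, stood at 10.11 and 11.46 with DMSO and 9.87 and 11.53 with the PPARγ agonist, a change of -0.09 (-0.66 to 0.49). Rhob, a small GTPase, was the 1 member of the 22 with an unadjusted p under 0.05, beside 3.07% lower of all genes. Without the culture set in the fit 1 member passed, beside 0.985% lower of all genes. Rhob stood at 5.18 and 5.24 with DMSO and 4.66 and 4.60 with the agonist, a change of -0.58 (-1.01 to -0.15, limma adjusted p = 0.806). Both agonist arrays lay below the limit of 4.892 that the mean of a tested gene had to reach. Slc25a20, the carnitine carrier of mitochondria, stood at 10.35 and 10.79 with DMSO and 10.05 and 10.33 with the agonist. Pdk4, a kinase that spares glucose, lay below the limit at 3.55 to 4.06 on the 4 arrays.

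A few of these targets differed between the PPARγ and the PPARβ agonist, which is a comparison with no DMSO array. The lists were chosen with earlier results of these data known, so their holding such genes is not independent of these values. For PPARγ minus PPARβ, the 25 PPARγ targets had a median of -0.08 with 20 below 0. The 22 oxidation targets had a median of -0.13 with 17 below 0, beside 6300 of all 12696 genes. Plin2 stood at 9.53 and 11.23 with the PPARβ agonist and was lower with the PPARγ agonist by 3.73 (difference -3.73, SE 0.25, limma adjusted p = 0.0072). Rhob stood at 7.99 and 7.79 with the PPARβ agonist, a difference of -3.26 (SE 0.18, limma adjusted p = 0.00352). These were the 2 genes of 12696 that limma called between PPARγ and PPARβ agonist (0.0158% lower, 0% higher). Klf11, a Krüppel-like transcription factor, differed by -2.19 (limma adjusted p = 0.0533), Cpt1a by -2.19 (0.088) and Hilpda, an inhibitor of lipid droplet breakdown, by -1.29 (0.088). Against the PPARα agonist limma called 0 genes in either direction, with 412 higher (3.25%) and 311 lower (2.45%) at an unadjusted p under 0.05. Doses were not given, so these values compare cultures and not potencies.

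**Figure D2:**
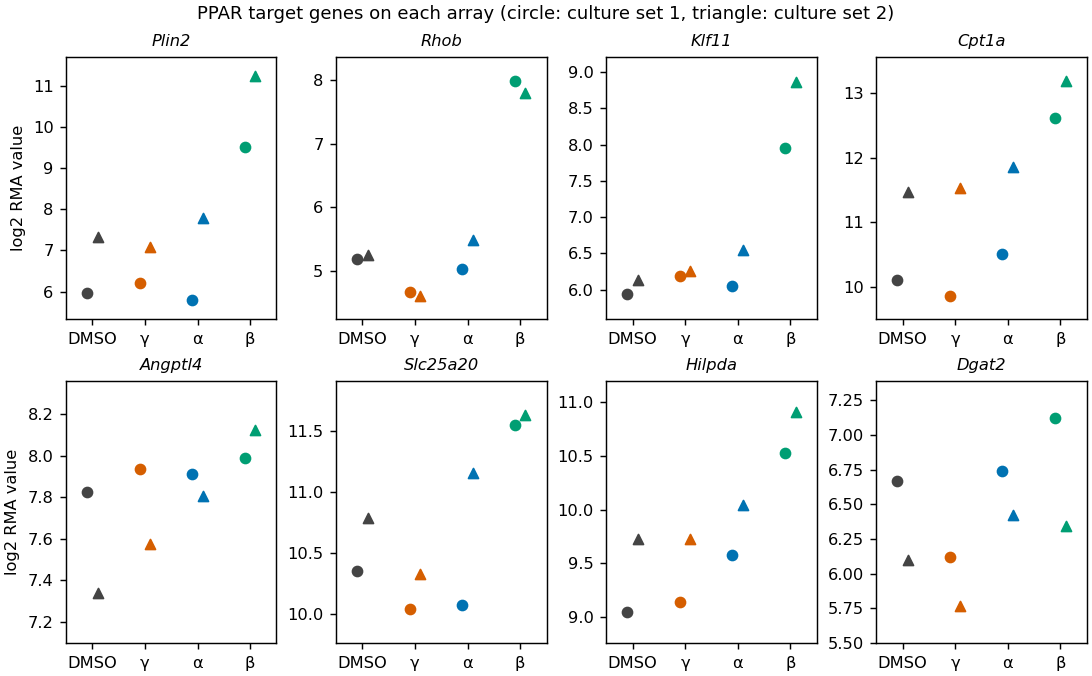
Log2 RMA values of 8 PPAR target genes on each of the 8 arrays, with 1 column per group (DMSO, then the PPARγ, PPARα and PPARβ agonists), circles for culture set 1 and triangles for culture set 2. The PPARγ points lie at the height of DMSO for Plin2, Klf11, Cpt1a and Hilpda, while the PPARβ points of these genes lie above all others.

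A PPAR response element was looked for in RefSeq promoter windows (build GRCm38.p6), taken as the 250 bases before a transcription start. The pattern searched, on both strands, was AGGNCA, any 1 base, and AGGNCA again. It occurred in 111 of 32851 windows (0.338%). Of the tested PPARγ targets, 15 had a window and 0 held the pattern, as did 0 of 19 oxidation targets. Known PPAR elements often lie outside such a window, and no match says only that the letters are not in it.

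Of the 35 pathway lists, the 4 of interferon-induced genes and their regulators had the medians farthest from 0, and nearly all of it came from culture set 1. Interferons are secreted in response to viruses and inflammation and switch on antiviral genes through STAT and IRF factors. Of 68 listed antiviral effectors, 57 were tested, and 50 of them lay below 0 with the PPARγ agonist, where 52.2% of all tested genes did. Their median change was -0.25, made up of -0.46 in set 1 and -0.02 in set 2, beside 0.03 and -0.04 for all tested genes. In set 1, 35 of the 57 were lower by 0.3 or more, beside 12.6% of all genes, and in set 2 4 of the 57 were, beside 17.1%. The agonist arrays did not overlap the DMSO arrays for 13 members lower and 1 higher, beside 12.2% lower and 11.8% higher of all genes. limma's unadjusted p was under 0.05 for 9 members, all lower, beside 3.07% lower of all genes. Without the culture set in the fit this held for 2 members, beside 0.985% lower of all genes. The lowest adjusted p was 0.806. The median of the effectors was -0.12 without the DMSO array of set 1 and -0.05 without the PPARγ array of set 1, and -0.37 and -0.39 without the DMSO and the PPARγ array of set 2.

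The ISG15 system, which tags proteins with a ubiquitin-like chain, had all 7 of its tested members below 0, with a median of -0.33 (-0.75 in set 1 and 0.03 in set 2). Isg15, the tag itself, stood at 7.9985 and 6.12 with DMSO and at 5.76 and 5.76 with the PPARγ agonist. Its change was -1.30 (-2.24 in set 1 and -0.36 in set 2, 95% interval -2.23 to -0.38, limma adjusted p = 0.806), a 2.46-fold lower mean. Both agonist arrays lay below both DMSO arrays, and without the DMSO array of set 1 the change was -0.55. Usp18, the protease that removes the tag, stood at 8.80 and 6.98 with DMSO and 6.87 and 7.01 with the agonist, so that 1 of 4 arrays was high. Uba7, the activating enzyme of the tag, stood at 7.26 and 6.83 with DMSO and 6.51 and 6.82 with the agonist.

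Among the antiviral effectors the largest values belonged to Ifit3b and Ifit3, of the interferon-induced IFIT family. Ifit3 stood at 10.07 and 7.80 with DMSO and 7.93 and 7.78 with the agonist, a change of -1.08 (-2.49 to 0.33, limma adjusted p = 0.835). Ifit3b, a close paralogue that probes may not separate from Ifit3, stood at 9.31 and 6.91 with DMSO and 6.92 and 6.53 with the agonist. Mx1, an antiviral GTPase, stood at 8.43 and 6.16 with DMSO and 6.17 and 6.42 with the agonist. In all 3 genes the DMSO array of set 1 was the high one and the remaining 3 lay close together. That array is also the 1 of 8 whose label describes its values as from a gene-level analysis, where the labels of the other 7 say exon-level. All 8 columns hold the same clusters. RMA aligns the arrays' distributions, so array medians within 5.636 to 5.722 cannot show whether this label matters. The part of this label in the interferon values was not tested. Rtp4, a receptor transporter induced by interferon, differed in both sets, at 8.21 and 7.27 with DMSO and 6.47 and 6.999 with the agonist (change -1.01, 95% interval -1.76 to -0.25, limma adjusted p = 0.806). Parp12, an ADP-ribosyltransferase, also differed in both sets, at 7.33 and 7.14 with DMSO and 6.73 and 6.84 with the agonist. Bst2, which tethers budding virus to the cell, stood at 13.19 and 12.87 with DMSO and 12.71 and 12.75 with the agonist, and Xaf1, a pro-apoptotic factor, at 9.96 and 9.31 with DMSO and 8.96 and 9.18 with the agonist.

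Interferon-induced GTPases, which attack the vacuoles of intracellular microbes, had 14 of 16 tested members below 0 and a median of -0.22 (-0.41 in set 1 and -0.02 in set 2). Gbp3, a guanylate-binding protein, stood at 10.26 and 11.44 with DMSO and 9.72 and 11.09 with the PPARγ agonist, a change of -0.45 (-0.82 to -0.08, limma adjusted p = 0.806). Unlike Isg15 it was lower in set 1 than in set 2 in every group, and it was lower with the agonist in both sets. Gm4841 stood at 7.35 and 7.98 with DMSO and 6.81 and 7.49 with the agonist. F830016B08Rik had the largest value of the list, at 6.19 and 5.85 with DMSO and 4.53 and 4.86 with the agonist (change -1.33, 95% interval -2.12 to -0.53, limma adjusted p = 0.806), with both agonist arrays below the limit of 4.892. Limma's unadjusted p was under 0.05 for 4 of the 16, all lower, beside 3.07% lower of all genes, and for 1 without the culture set in the fit (beside 0.985%).

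The sensors, receptors and transducers of the interferon pathway had 20 of 25 members below 0, with a median of -0.17. Ddx58, the RIG-I sensor of viral RNA, stood at 11.34 and 11.91 with DMSO and 10.67 and 11.57 with the agonist, a change of -0.50 (-0.86 to -0.14, limma adjusted p = 0.806). Irf7, the factor that amplifies type I interferon, stood at 9.68 and 8.81 with DMSO and 8.07 and 8.58 with the agonist. Irf8, an interferon regulatory factor, stood at 10.58 and 9.84 with DMSO and 10.30 and 9.40 with the agonist. Of 7 tested genes of the interferons themselves, 4 lay below 0 and 3 above, and 0 had an unadjusted p under 0.05. Class I antigen processing, which interferons also induce, had a median of -0.04, with 13 of 20 below 0 and 0 at an unadjusted p under 0.05.

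The arrays of the other agonists place the high DMSO array of set 1. Ifit3 stood at 7.87 and 7.71 with the PPARα agonist and 10.64 and 8.12 with the PPARβ agonist. Isg15 stood at 6.36 and 6.03 with the PPARα agonist and 6.84 and 6.01 with the PPARβ agonist. The mean level of the 57 effectors in set 1 was 10.76 with DMSO, 10.87 with the PPARβ agonist, 10.23 with the PPARα agonist and 10.12 with the PPARγ agonist. In set 2 it was 10.44, 10.50, 10.35 and 10.42 in the same order. In set 1 the DMSO and PPARβ arrays were thus high and the PPARα and PPARγ arrays low, and in set 2 all 4 arrays lay between these levels. Of the direct contrasts, PPARγ minus PPARβ had 50 of 57 effectors and 16 of 16 GTPases below 0, with medians of -0.30 and -0.53, and limma's unadjusted p was under 0.05 for 16 and 12 of them (all lower, beside 3.65% lower and 3.42% higher of all genes). PPARγ minus PPARα had 29 of 57 effectors below 0, a median of -0.04 and 0 of them at an unadjusted p under 0.05. In that contrast 13 of 16 GTPases lay below 0 (median -0.11, 1 lower at an unadjusted p under 0.05, beside 2.45% lower of all genes), as did 4 of 7 members of the ISG15 system (median -0.28) and 18 of 25 sensors (median -0.08). None of these members had an adjusted p under 0.05 in either contrast.

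**Figure D3:**
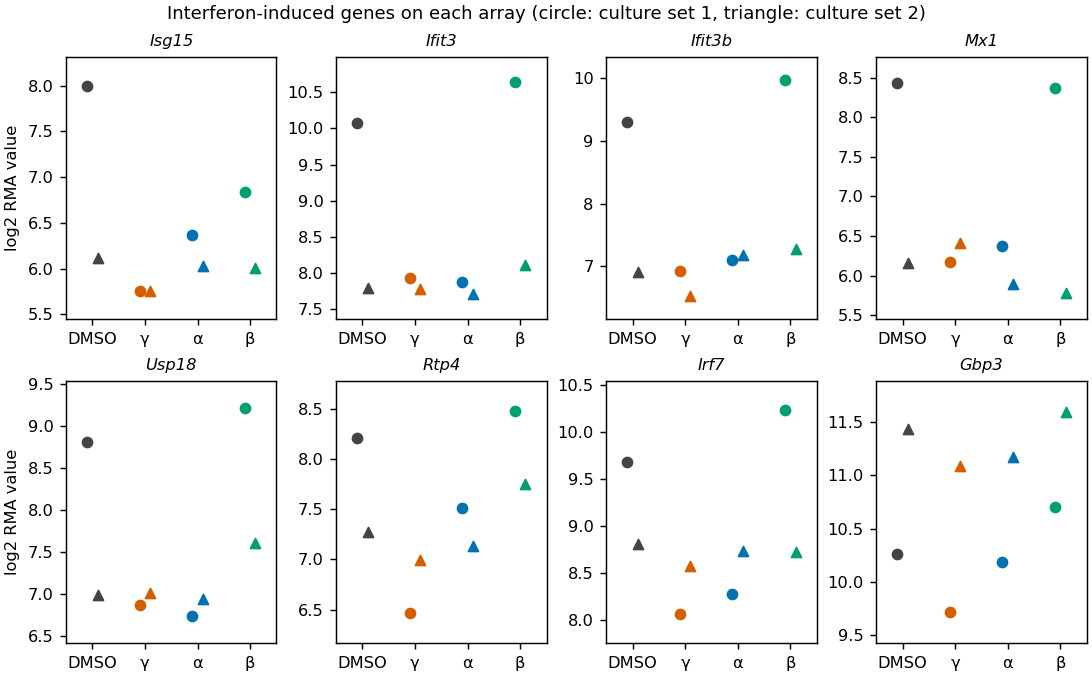
Log2 RMA values of 8 interferon-induced genes on each of the 8 arrays, with 1 column per group (DMSO, then the PPARγ, PPARα and PPARβ agonists), circles for culture set 1 and triangles for culture set 2. For Ifit3, Ifit3b, Mx1, Usp18 and Irf7 the DMSO and PPARβ circles lie high and the other points low, while Gbp3 lies lower in set 1 than in set 2 in every group.

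Some of these genes share a sequence before their start. The interferon-stimulated response element is the site of the STAT and IRF complex that type I interferon activates, and it was searched as GAAA, any 2 bases, and GAAA on both strands of the 250 bases before each RefSeq start (build GRCm38.p6). The letters occurred in 978 of 32851 windows (2.98%) and, by gene, in 327 of 9919 tested genes with a window (3.3%). They occurred in 20 of 44 tested antiviral effectors with a window (45.5%), in 7 of 7 GTPases, in 1 of 6 members of the ISG15 system and in 3 of 21 sensors, receptors and transducers (14.3%). The 20 effectors with the letters had a median change of -0.67 in set 1 and -0.0051 in set 2, and the 24 without had -0.30 and -0.0053. A match is a description of the letters and not a site shown to be used.

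The windows of Isg15, Ifit3, Ifit3b and Gbp3 are shown because these genes carry the values above and hold 2 or 3 matches each. Each is given 5′ to 3′ on the strand of its gene, with the matched bases in capitals. The Isg15 window is chr4:156200819-156201068 on the minus strand, where 3 overlapping matches begin 78, 72 and 66 bases before the start. The Ifit3 window is chr19:34583279-34583528 and the Ifit3b window chr19:34607707-34607956, both on the plus strand. Their matches read on the opposite strand and begin 156 and 122 bases before the start of Ifit3 and 188 and 154 before that of Ifit3b. The Gbp3 window is chr3:142559794-142560043 on the plus strand, with 2 overlapping matches, also read on the opposite strand, that begin 45 and 39 bases before the start.
Isg15: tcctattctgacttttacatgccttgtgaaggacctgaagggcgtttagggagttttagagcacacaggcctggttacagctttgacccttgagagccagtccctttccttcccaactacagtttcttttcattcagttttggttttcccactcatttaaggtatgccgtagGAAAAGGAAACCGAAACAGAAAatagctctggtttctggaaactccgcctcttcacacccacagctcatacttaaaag
Ifit3: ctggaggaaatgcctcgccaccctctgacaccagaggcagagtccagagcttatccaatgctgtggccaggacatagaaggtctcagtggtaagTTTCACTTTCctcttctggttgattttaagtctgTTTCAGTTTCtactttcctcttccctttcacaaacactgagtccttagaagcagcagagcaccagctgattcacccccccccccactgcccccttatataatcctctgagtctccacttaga
Ifit3b: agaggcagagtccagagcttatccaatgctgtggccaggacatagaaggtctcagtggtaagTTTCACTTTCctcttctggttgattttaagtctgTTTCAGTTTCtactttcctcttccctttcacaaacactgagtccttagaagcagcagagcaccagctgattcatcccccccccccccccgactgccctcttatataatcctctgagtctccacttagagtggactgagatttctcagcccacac
Gbp3: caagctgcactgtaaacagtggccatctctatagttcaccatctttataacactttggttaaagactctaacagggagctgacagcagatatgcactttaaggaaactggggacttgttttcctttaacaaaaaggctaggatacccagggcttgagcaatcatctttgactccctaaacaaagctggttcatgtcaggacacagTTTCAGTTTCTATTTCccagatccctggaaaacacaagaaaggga

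Besides Isg15 and the interferon-induced Isg20, the 10 lowest and 10 highest genes named for a difference in both sets were single genes of varied function. Kit, the receptor of stem cell factor (chromosome 5, 75574916 to 75656722, build mm10), stood at 7.42 and 7.44 with DMSO and at 6.65 and 6.49 with the PPARγ agonist. The groups did not overlap, and the change was -0.85 (-0.76 in set 1 and -0.95 in set 2, 95% interval -1.18 to -0.52, limma adjusted p = 0.806), a 1.81-fold lower mean. Kit stood at 6.95 and 7.10 with the PPARα agonist and 7.27 and 7.34 with the PPARβ agonist, so the PPARγ arrays were the lowest of all 8. The direct differences were -0.45 from the PPARα agonist (limma's unadjusted p = 0.0138) and -0.73 from the PPARβ agonist (unadjusted p = 0.00111), and neither passed after adjustment. With 1 array left out, the change of Kit lay between -0.98 and -0.73.

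Ccrl2, a chemerin-binding receptor related to chemokine receptors (chromosome 9, 111054834 to 111057519), stood at 5.95 and 5.75 with DMSO and 4.55 and 4.90 with the PPARγ agonist. Its change was -1.12 (95% interval -1.86 to -0.38, limma adjusted p = 0.806), and the agonist array lay below the limit of 4.892 in set 1 and just above it in set 2. It was also lower than with the PPARα agonist by 1.10 (difference -1.10) and than with the PPARβ agonist by 1.45 (difference -1.45). Sgk1, the serum- and glucocorticoid-regulated kinase (chromosome 10, 21882184 to 21999903), stood at 7.24 and 7.07 with DMSO and 5.79 and 6.45 with the PPARγ agonist. Its change was -1.03 (-1.76 to -0.30, limma adjusted p = 0.806). Sgk1 stood at 6.50 and 6.48 with the PPARα agonist and 7.01 and 6.15 with the PPARβ agonist, between DMSO and the PPARγ agonist in set 1. Without the PPARγ array of set 1 its change was -0.52, and that of Ccrl2 was -0.73.

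The rest of the 10 lowest genes by the rule lay between -0.96 and -0.83. Isg20, an interferon-induced exonuclease, stood at 11.45 and 9.03 with DMSO and 9.84 and 8.72 with the agonist, with overlap between the groups. Itga7, a laminin-binding integrin chain, stood at 5.70 and 6.85 with DMSO and 4.83 and 6.02 with the agonist. Slc41a2, a magnesium transporter, stood at 5.39 and 6.06 with DMSO and 4.72 and 4.93 with the agonist. H3c1, a histone H3 gene with near-identical copies that probes may not separate, stood at 6.0026 and 5.74 with DMSO and 5.35 and 4.63 with the agonist. Mrgprx1, a receptor known from sensory neurons, and Rwdd2a had changes of -0.83 and -0.85, with agonist arrays at 4.44 to 4.89, near or under the limit of 4.892. The agonist arrays of Itga7 and Slc41a2 in set 1 and of H3c1 in set 2 also lay under that limit. The size of these changes thus rests in part on values near or under it. The rule that named these 6 genes requires agonist arrays below the DMSO array of their set. Their limma adjusted p-values were 0.806 to 0.809.

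Among the 10 highest genes, 4 had a far larger difference in set 2 than in set 1. Gpr52, an orphan receptor known from brain (chromosome 1, 160576668 to 160577753), stood at 4.80 and 4.49 with DMSO and 5.29 and 7.21 with the PPARγ agonist. Its change was 1.61 (0.49 in set 1 and 2.73 in set 2, 95% interval 0.26 to 2.96, limma adjusted p = 0.806), and without the PPARγ array of set 2 it was 0.39. Both DMSO arrays lay below the limit of 4.892 that the mean of a tested gene had to reach, so the size of this change rests on DMSO values under that limit. Phxr4 stood at 7.11 and 7.45 with DMSO and 7.48 and 10.06 with the agonist. Tbrg3 stood at 7.29 and 6.83 with DMSO and 7.83 and 8.89 with the agonist. Insyn2b stood at 5.30 and 4.96 with DMSO and 5.68 and 6.67 with the agonist. In each of these 4 genes the PPARγ array of set 2 was the highest of the 4 arrays compared.

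Of the others, Pygl owed most of its difference to set 1. Gsta4, a glutathione transferase that clears products of lipid peroxidation, stood at 5.28 and 4.95 with DMSO and 5.89 and 6.13 with the agonist, a change of 0.90 (0.40 to 1.40, limma adjusted p = 0.806). Dock9, an exchange factor for the GTPase Cdc42, stood at 6.26 and 6.75 with DMSO and 7.24 and 7.38 with the agonist, a change of 0.80 (0.35 to 1.26). Pygl, a glycogen phosphorylase, stood at 6.74 and 8.43 with DMSO and 8.13 and 8.84 with the agonist, with overlap between the groups. Nbeal1, a BEACH-domain protein, and Tpd52, a protein of membrane traffic, each stood 0.80 and 0.79 higher, with groups that did not overlap. The PPARγ and the PPARα agonist differed little for Pygl and Tpd52 (-0.12 and 0.06), and more for Nbeal1 (0.78, limma's unadjusted p = 0.00497).

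**Figure D4:**
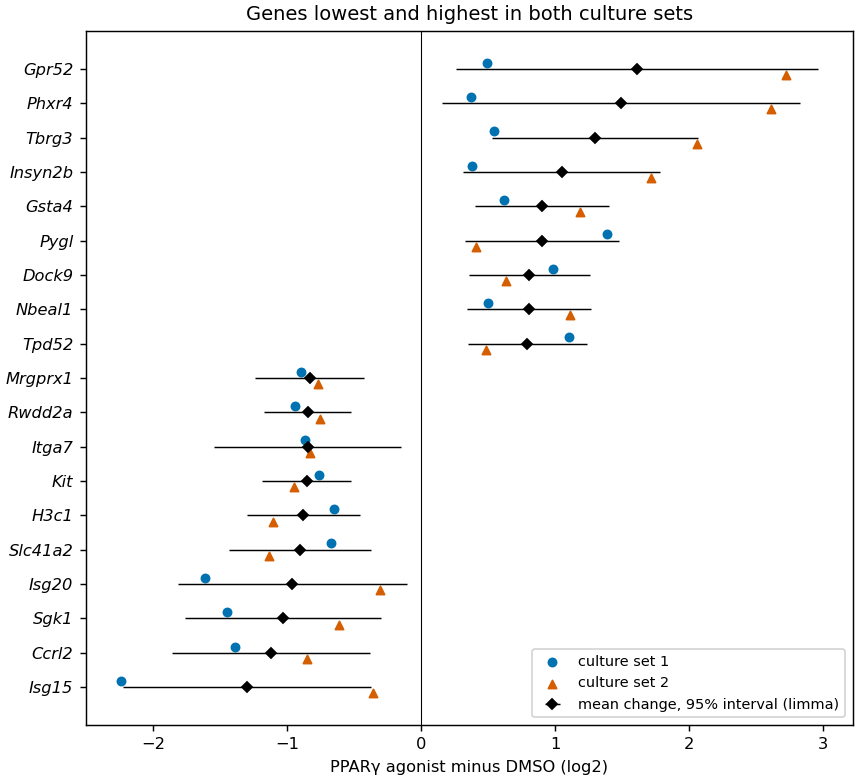
PPARγ agonist minus DMSO (log2) of the genes named as lowest and highest in both sets, with a diamond for the mean change, a line for limma's 95% interval, a circle for culture set 1 and a triangle for culture set 2. Kit, Rwdd2a, Mrgprx1 and Itga7 have both sets close together, while Gpr52, Phxr4 and Tbrg3 lie far to the right in set 2 and near 0.5 or below it in set 1.

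Effector genes of the T cells were mixed. Ifng, the gene of interferon gamma, was the largest of the cytokines, at 11.54 and 7.42 with DMSO and 12.80 and 8.08 with the PPARγ agonist. It was higher with the agonist in both sets, by 1.26 and 0.66, but the sets differed far more than the groups, and the 95% interval of the change of 0.96 ran from -0.04 to 1.95 (limma adjusted p = 0.822). Without the PPARγ array of set 1 the change was 0.29. Gzmb, the killing protease granzyme B, stood at 15.08 and 14.24 with DMSO and 15.12 and 14.16 with the agonist, a change of -0.02 (-0.41 to 0.37). Of 18 tested granule genes 14 lay below 0, with a median of -0.07 and 0 at an unadjusted p under 0.05. Gzma, granzyme A, had the largest value, at 7.0031 and 7.71 with DMSO and 6.07 and 7.39 with the agonist.

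Among 18 tested cytokines and death ligands, 11 lay below 0 and 7 above. Osm, which encodes oncostatin M, stood at 8.97 and 8.95 with DMSO and 8.33 and 8.53 with the agonist, a change of -0.53 (-0.87 to -0.19, limma adjusted p = 0.806), with no overlap. Lif, a cytokine of the same family, stood at 9.77 and 8.24 with DMSO and 9.17 and 7.85 with the agonist, a change of -0.50 (-0.86 to -0.14, limma adjusted p = 0.806). Tnf, the gene of tumour necrosis factor, stood at 11.998 and 10.39 with DMSO and 11.53 and 10.0019 with the agonist. These 3 genes were lower in both sets, whereas Ifng was higher in both.

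NF-kB target genes, the inflammatory genes that PPARγ ligands are known to dampen in macrophages, had 25 of 32 tested members below 0, beside 52.2% of all genes. Their median was -0.10 (-0.05 in set 1 and -0.08 in set 2), beside -0.01 for all genes. Their mean level was 10.46 and 9.95 with DMSO and 10.34 and 9.77 with the PPARγ agonist. It was 10.30 and 9.89 with the PPARα agonist and 10.55 and 9.90 with the PPARβ agonist. PPARγ minus PPARα had 18 of 32 below 0 and a median of -0.02, and PPARγ minus PPARβ 24 of 32 and -0.11. For the PPARγ agonist against DMSO, limma's unadjusted p was under 0.05 for 2 of the 32, Ccrl2 and Nfkbiz. Both were lower, beside 3.07% lower and 2.77% higher of all genes. Without the culture set in the fit this held for 1 member, beside 0.985% lower of all genes. Nfkbiz, an atypical inhibitor of NF-kB, stood at 10.43 and 9.72 with DMSO and 10.15 and 9.21 with the agonist. Ccl4, a chemokine of activated T cells, stood at 9.08 and 7.9952 with DMSO and 8.85 and 7.22 with the agonist, a change of -0.50 (-1.01 to 0.01, limma adjusted p = 0.822). Early response factors had a median of -0.05 over 25 members, with Fosl1, an AP-1 subunit, at 7.64 and 7.26 with DMSO and 7.25 and 6.54 with the agonist.

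Surface receptors and transcription factors of T cells stood near 0 as lists. The 30 tested effector and memory transcription factors had a median of -0.03, the 24 genes of the T cell receptor complex -0.02, the 15 checkpoint genes -0.03, the 20 costimulatory genes -0.04, the 24 homing genes -0.03 and the 22 cytokine receptors -0.03. An unadjusted p under 0.05 was found for 0 members of the first 3 lists, 1 costimulatory gene, 2 homing genes and 2 cytokine receptors, all lower, beside 3.07% lower of all genes. Without the culture set in the fit each of the last 3 lists had 1. Tnfrsf8, which encodes CD30, stood at 6.22 and 5.997 with DMSO and 5.63 and 5.58 with the agonist, a change of -0.50 (-0.89 to -0.12, limma adjusted p = 0.806). Ccr6, a homing receptor for mucosal tissue, stood at 8.05 and 6.07 with DMSO and 7.5047 and 5.56 with the agonist, a change of -0.53 (-0.86 to -0.19, limma adjusted p = 0.806), within a larger difference between the sets. Havcr2, the exhaustion marker TIM-3, stood at 5.10 and 5.54 with DMSO and 4.47 and 5.12 with the agonist, where the array of set 1 lay under the limit of 4.892.

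Metabolism and growth lists were also near 0. Cholesterol synthesis and uptake had 16 of 25 members below 0, beside 52.2% of all genes, and a median of -0.11. There were 3 members at an unadjusted p under 0.05, all lower, beside 3.07% lower of all genes, and 1 without the culture set in the fit. Among them Pmvk, an enzyme of the mevalonate pathway, stood at 9.65 and 9.38 with DMSO and 8.85 and 9.15 with the agonist. Fatty acid uptake had 10 of 14 below 0 and a median of -0.11, which was the lowest of the 31 pathway lists outside the interferon ones. The highest of these 31 was mitosis, at a median of 0.03, where Cenpf, a kinetochore protein, stood at 9.46 and 9.73 with DMSO and 9.70 and 10.39 with the agonist.

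Mitochondrial fatty acid oxidation (21 tested), glycolysis (22), the citric acid cycle (27), the respiratory chain (34) and DNA replication (33) had medians of 0.02, -0.0021, -0.04, -0.03 and -0.0085, with 0 members at an unadjusted p under 0.05 in any of the 5. Pfkm, the muscle phosphofructokinase, had the largest value of the glycolysis list, at 8.18 and 9.17 with DMSO and 8.96 and 9.48 with the agonist (change 0.55, -0.02 to 1.11, limma adjusted p = 0.822). Antioxidant genes had 2 of 25 members at an unadjusted p under 0.05, both lower, beside 3.07% lower of all genes, and 0 without the culture set in the fit. One of them was Prdx6, a peroxiredoxin, at 9.69 and 9.56 with DMSO and 9.32 and 9.10 with the agonist.

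**Figure D5:**
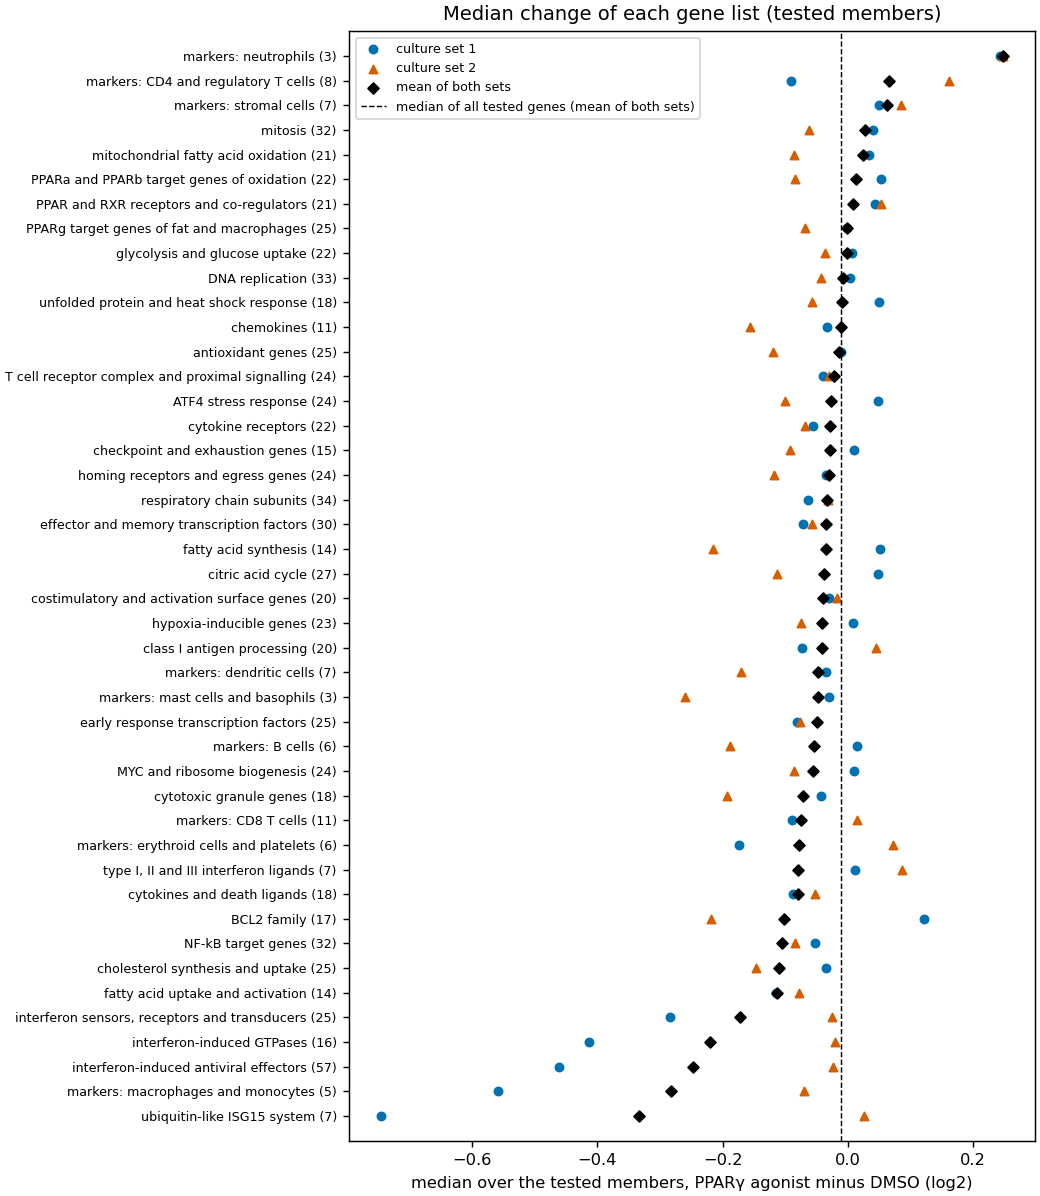
Median change (PPARγ agonist minus DMSO, log2) over the tested members of each of 44 gene lists with at least 3 tested members, with a circle for culture set 1, a triangle for culture set 2, a diamond for the mean of both, the number of tested members in brackets and a dashed line at the median of all tested genes. The interferon lists and the macrophage markers lie to the left in set 1 and near 0 in set 2, and the diamonds of the other lists lie near the dashed line except for the 3 tested neutrophil markers at 0.25.

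Markers of other cells were measured beside these groups. Of 17 macrophage and monocyte markers 5 were tested and 12 lay below the limit, among them Lyz2, Csf1r, Adgre1 and Cd14. The 5 had a median change of -0.28, with 4 below 0 and 1 above. It was -0.56 in set 1 and -0.07 in set 2. Their mean level was 7.99 and 7.89 with DMSO and 7.53 and 7.85 with the PPARγ agonist. With the PPARα agonist it was 7.73 and 7.72, and with the PPARβ agonist 7.72 and 8.16. In set 1 the arrays of all 3 agonists lay below DMSO on this mean of 5 markers. Fcgr1, an Fc receptor that interferon also induces, stood at 5.45 and 5.59 with DMSO and 4.89 and 5.07 with the agonist, and Cd68, a lysosomal protein, at 8.56 and 8.14 with DMSO and 7.96 and 8.01 with the agonist. The part of the macrophage and monocyte markers in the interferon values was not tested.

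Of 13 mast cell and basophil markers 3 were tested. Limma's unadjusted p was under 0.05 for 1 of them, Kit, which was lower, beside 3.07% lower of all genes. Without the culture set in the fit this also held for 1, beside 0.985% lower of all genes. Kit was already named above by size and p, so this count is not a result about the marker list. The defining genes Cpa3, Mcpt4, Mcpt8, Fcer1a and Ms4a2 lay below the limit on the mean of the 8 arrays, and Cpa3 stood at 3.93 and 4.40 with DMSO and 4.72 and 4.48 with the agonist. Of 14 B cell markers 6 were tested, with a median of -0.06 and 2 at an unadjusted p under 0.05, both lower (beside 3.07% lower of all genes, and 0 without the culture set in the fit), while Ms4a1 and Cd79a lay below the limit. Of 12 natural killer cell markers 1 was tested. The 8 tested markers of CD4 and regulatory T cells had a median of 0.07, and the 7 stromal markers 0.06, where the collagen gene Col1a1 stood at 5.32 and 5.17 with DMSO and 5.53 and 6.02 with the agonist.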

How the data were processed

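The deposited values were RMA values on the log2 scale, made by the authors in Expression Console per the labels' description, with RMA also in the submitters' processing notes; the sources used here give no versions. RMA aligns the arrays' distributions, which removes a change shared by most transcripts. Per the labels, 100 ng of RNA was prepared per array. Per the file headers, the annotation release is on build mm10. A deposited linear intensity column equalled the log2 column on conversion (largest difference 1.5e-06) and was not tested. The deposited value matrix differed from the workbook by at most 5e-07. Array maxima of 19.012 to 19.162 are high for RMA and the scaling was not given.

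Symbols of single-gene clusters were updated through entrez IDs with a RefSeq table (assembly GRCm38.p6; 20395 of 21371 matched, 899 symbols changed), and the brightest cluster was used for each of 21160 genes. Genes above the 40th percentile of mean value were tested (12696). The 832 clusters of several genes were tested separately. limma 3.58.1 in R 4.3.3 fitted the 4 groups over all 8 arrays with the culture set as a block (3 residual and 4.264 prior degrees of freedom), two-sided, with Benjamini-Hochberg adjustment over all tested genes. Every p-value is limma's. The title prefixes pair the arrays: between the sets, DMSO and PPARγ arrays differed alike across genes (correlation 0.53; 0.496 to 0.55 over the pairs of groups). The fit recovered the known changes when tested on simulated data, where these were larger than nearly all differences from DMSO given above. Smaller changes were not simulated, so the simulation does not show whether they would be called.

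Up to 10 genes per direction were named by size among those with a difference of at least 0.3 in both sets and an unadjusted p under 0.05. Predicted genes and receptor families (65 of 463 candidates) were counted only. Up to 4 members of each list were named by size among those with 1 sign in both sets, with the tested interferon genes and a fixed set of PPAR and T cell genes. For genes named by size, the same sign in both sets is therefore a condition of the rule and not a result. Hilpda, Nfkbiz, Cish, Socs3, Id1, Hey1, the Mup cluster and the markers below the limit lie outside these rules and were chosen after their values were seen. The 45 lists (35 of pathways, 10 of cell markers) and the compared arrays were chosen with earlier results of these data known, and no set test was run. Python 3.11.15 with pandas 2.3.3, numpy 2.4.6, scipy 1.17.1 and matplotlib 3.10.9 made tables and plots. Some genes that these rules name are not reported here.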

Additional observations from a re-analysis of the deposited data

How the results depend on the processing

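The count of 0 genes with an adjusted p under 0.05 was the same in 9 of the 10 alternatives, and with an intensity trend and robust variances 2 predicted genes passed (1 higher, 1 lower). At an unadjusted p under 0.05 the count of 742 was 276 without the replicate block and 1182 without a filter, where 21371 clusters were tested. It lay between 639 and 961 with 1 of the 4 arrays left out. Genes at 0.3 or more in both sets, 669 in all, numbered 119 at a minimum of 0.5, 306 with the filter at the 60th percentile and 1452 without a filter. The last 2 test fewer and more genes. The median of the antiviral effectors kept its sign in all alternatives and lay between -0.39 and -0.05 with 1 array left out. The replicate block leaves every change as it is and alters p-values alone.

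Of 738 alternative values of 77 single genes, 12 turned sign, each with 1 array left out. They belong to 9 genes, whose changes then ranged from -0.0128 to 0.36 for Angptl4, -0.37 to 0.20 for Cpt1a, -0.18 to 0.13 for Gzmb, -0.0575 to 0.14 for Hilpda, -0.0475 to 0.41 for Klf11, -0.19 to 0.61 for Lpl, -2.01 to 0.0135 for Mx1, -0.39 to 0.42 for Plin2 and -0.47 to 0.05 for Ppara. The cause was not tested. With 2 arrays a group, a change under about 0.39 lies within the usual interval of a gene.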

Other observations

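A few genes of other pathways were lower with the PPARγ agonist in both sets and were chosen after their values were seen. Cish, an inhibitor of cytokine signalling that STAT5 induces, stood at 11.86 and 11.04 with DMSO and 11.44 and 9.80 with the agonist, a change of -0.83 (95% interval -1.40 to -0.26, limma adjusted p = 0.806). Cish stood at 11.51 and 10.74 with the PPARα agonist and 11.88 and 10.35 with the PPARβ agonist. Socs3, another such inhibitor, stood at 5.51 and 5.43 with DMSO and 5.25 and 4.99 with the PPARγ agonist.

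Id1, an inhibitor of basic helix-loop-helix factors, stood at 6.25 and 6.41 with DMSO and 5.64 and 5.42 with the PPARγ agonist, a change of -0.80 (-1.17 to -0.43, limma adjusted p = 0.806). It stood at 5.70 and 5.38 with the PPARα agonist and 5.59 and 5.51 with the PPARβ agonist, so both DMSO arrays lay above all 6 agonist arrays. Hey1, a repressor known as a Notch target, stood at 6.65 and 6.47 with DMSO and 5.65 and 5.96 with the PPARγ agonist, a change of -0.75 (-1.13 to -0.38, limma adjusted p = 0.806). It stood at 6.0012 and 6.0019 with the PPARα agonist and 5.94 and 6.11 with the PPARβ agonist, again below both DMSO arrays. The DMSO arrays are shared by all 3 comparisons, and the cause was not tested.

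Among 534 tested clusters that name several genes, limma called 0, with 28 at an unadjusted p under 0.05 and a lowest adjusted p of 0.068 over these clusters. That value belonged to the cluster shared by Mup-ps19 and Mup20, at 4.61 and 4.58 with DMSO and 5.73 and 5.85 with the PPARγ agonist. Both DMSO arrays lay below the limit of 4.892, so the size of this difference rests on DMSO values under that limit.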
